A study of Mus musculus with 13 samples.

Results

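Class 3 semaphorins and their receptors were followed in mouse embryonic fibroblasts (MEFs) that had been made senescent and then exposed to a seaweed polysaccharide. The 10 genes comprise 6 secreted ligands (Sema3a, Sema3b, Sema3c, Sema3d, Sema3e and Sema3f), both neuropilin co-receptors (Nrp1 and Nrp2) and 2 plexins (Plxna1 and Plxnd1). They were chosen by name, with their counts across the groups already known, from 57010 genes listed in the deposited tables, and all 10 passed the low-count filter that left 15034 genes. Their levels, folds and calls are therefore given as a description, without a test. A selected gene is called a DEG, a differentially expressed gene, where its fitted change exceeded 1 on the log2 scale with an adjusted p below 0.05 in a fit across all tested genes.

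All cells were wild-type primary MEFs, grown from embryos whose viscera had been removed, and no transgene or deletion distinguished the groups. Control MEFs were untreated. Senescent MEFs had received etoposide, a topoisomerase poison that breaks DNA, followed by days in normal medium. Fucoidan-FV, a sulfate-bearing sugar polymer made by the seaweed Fucus vesiculosus, was then given to senescent MEFs at 100 or 300 μg/mL. The labels name mice 4, 5 and 6 in each of the 4 groups, so n = 3 mice throughout, and both doses were compared with the same 3 senescent samples. Control mouse 5 was sequenced as 2 libraries, named 5(1) and 5(2), whose counts were summed. The 13 libraries held 22782536 to 31278750 counts assigned to genes. Levels are given as CPM, a gene's counts relative to the total of its library, after scaling between libraries, and genes are compared with one another only in TPM, a share of transcripts that corrects for gene length.

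Class 3 semaphorins are secreted cues first known for repelling growing axons, and they also act on endothelial cells, bone and mesenchyme. Most bind a neuropilin, which holds the ligand while a plexin carries the signal into the cell, where the plexin acts on small GTPases and loosens adhesion and the actin cytoskeleton. Sema3e is the exception, since it binds Plxnd1 directly. Neuropilins also bind vascular endothelial growth factors (VEGFs), so semaphorins and VEGFs can compete for them.

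Markers of senescence and of fibroblasts were checked first. Cdkn1a, which encodes the cell cycle inhibitor p21, averaged 468 CPM in control MEFs, 1652 CPM in senescent MEFs and 1440 and 1660 CPM with the lower and higher dose. The 12 fibroblast markers summed to between 32206 and 54392 CPM in the 12 samples, and none was at 0 throughout a group. Within that list some genes, like Sema3b, Sema3c and Sema3d, had their lowest mean in control and their highest in treated MEFs. The small proteoglycan gene Dcn averaged 1.06, 16.2, 81.6 and 75.7 CPM in control, senescent, 100 and 300 μg/mL. Lum averaged 0.0610, 0.666, 6.60 and 4.47 CPM and Col3a1 516, 873, 2271 and 1963 CPM. Others went the other way with treatment: Twist2 averaged 23.5, 25.5, 11.5 and 9.72 CPM and Vim 5590, 7729, 4228 and 4869 CPM. Both were lower in every treated sample than in any senescent one. The part of these differences in the semaphorin levels was not tested. Senescent mouse 6 had the lowest mean correlation of the 12 samples with the others of its group, 0.948. The next lowest was 0.957, in senescent mouse 5, and the highest was 0.981. A second feature cut across groups. Genes whose exonic bases lie more than 95% in a single annotated transcript (2195 genes) were 2.19 log2 units higher at the median in library 5(2) than in library 5(1) of the same mouse, whereas the 7582 genes below 50% differed by -0.14. Of the 10 genes, Nrp1 (84.1%), Plxna1 (83.9%) and Plxnd1 (79.3%) carried the most such single-transcript sequence and Sema3b (13.6%) the least. Because this is bulk RNA, fewer cells expressing a gene and less of its RNA per cell cannot be told apart.

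In the GRCm39 assembly, Sema3d (chr5:12433124-12638929), Sema3a (chr5:13175288-13653578), Sema3e (chr5:14075290-14306719) and Sema3c (chr5:17779219-17935648) lie in this order on the plus strand. Sema3b (chr9:107474872-107486456) and Sema3f (chr9:107558698-107587674) lie on the minus strand, 72.2 kb apart. None of the 6 ligand genes shared exonic bases with another annotated gene. The 250 bases before the RefSeq start of 3 of them are printed because 2 of these genes were higher in senescent and treated MEFs (Sema3c, Sema3d) and 1 was lower (Sema3e). They come from RefSeq in the GRCm38.p6 assembly, plus strand, and capitals mark matches to the GC box (GGGCGG) or CCAAT box on either strand.
Sema3c, GRCm38.p6 chr5:17574566-17574815: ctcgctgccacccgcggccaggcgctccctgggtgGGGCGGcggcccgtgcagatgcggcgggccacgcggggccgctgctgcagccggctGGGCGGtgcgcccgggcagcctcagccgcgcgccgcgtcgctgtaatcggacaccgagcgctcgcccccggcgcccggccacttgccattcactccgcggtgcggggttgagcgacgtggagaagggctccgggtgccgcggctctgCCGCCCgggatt
Sema3d, GRCm38.p6 chr5:12382916-12383165: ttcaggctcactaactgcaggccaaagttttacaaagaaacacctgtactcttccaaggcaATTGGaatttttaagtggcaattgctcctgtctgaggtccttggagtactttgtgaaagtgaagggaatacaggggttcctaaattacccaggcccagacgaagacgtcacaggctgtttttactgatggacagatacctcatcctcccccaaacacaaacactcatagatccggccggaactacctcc
Sema3e, GRCm38.p6 chr5:14025026-14025275: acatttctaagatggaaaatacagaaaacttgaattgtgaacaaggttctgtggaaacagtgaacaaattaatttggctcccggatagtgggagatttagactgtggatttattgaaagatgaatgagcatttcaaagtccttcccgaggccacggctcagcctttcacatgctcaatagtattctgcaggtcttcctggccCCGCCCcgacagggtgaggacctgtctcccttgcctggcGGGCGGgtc

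These 3 promoters had little in common. The Sema3c window was 78.4% G and C and held 3 GC boxes, which start 215, 159 and 12 bases before the start site. The Sema3d window was 46.8% G and C and held 1 CCAAT box, 189 bases before the start. The Sema3e window was 48.0% G and C and held 2 GC boxes. Across 32851 RefSeq promoters cut to the same length, median G and C content was 52.4%, 32.7% held a GC box and 33.8% a CCAAT box. The other motifs searched on both strands were the TATA box (TATAAA, in 12.4% of all promoters), AP-1 (TGANTCA, 6.75%), CRE (TGACGTCA, 1.55%) and the E-box (CACGTG, 6.02%), and none of them was found in these 3 windows. The Nrp2 window held 5 GC boxes, and those of Nrp1 and Plxnd1 held 1 each. The Sema3a window was 40.8% G and C and held none of the motifs. No promoter of Sema3b, Sema3f or Plxna1 was available. A match describes letters only.

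Sema3b, Sema3c, Sema3d and Sema3f had higher levels in every treated sample than in any senescent or control sample, and none of the 10 genes separated the doses. Between senescent and control MEFs, 4 of the 10 genes were DEG calls: Sema3b, Sema3c and Sema3d higher and Sema3e lower. Over all tested genes 8.42% were DEG calls in that comparison. Overlap was judged in CPM. Values did not overlap for 4 genes, Sema3b higher and Sema3a, Sema3e and Nrp1 lower, where 27.1% of all genes did not overlap. At 100 μg/mL against senescent, 2 of 10 were calls, Sema3d and Sema3f, both higher, beside 2.69% of all genes. Sema3b, Sema3c, Sema3d and Sema3f did not overlap, beside 26.2% of all genes. At 300 μg/mL the same 2 genes were calls beside 1.64% of all genes, and Nrp2 joined the 4 ligands that did not overlap, beside 19.6%. Between 300 and 100 μg/mL none of the 10 was a call in edgeR or DESeq2 and none was free of overlap. In that comparison 0.00665% of all genes, a single gene, was a call, 94 genes had an unadjusted p under 0.05 in edgeR, and 7.54% did not overlap. Fitted differences between the doses ran from -0.55 for Plxnd1 to 0.40 for Sema3e on the log2 scale. Since these counts chose the genes, nothing is read from the excess over all genes. With the mouse as a block the calls numbered 2, 1 and 1 in the first 3 comparisons, in place of 4, 2 and 2.

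**Figure D1:**
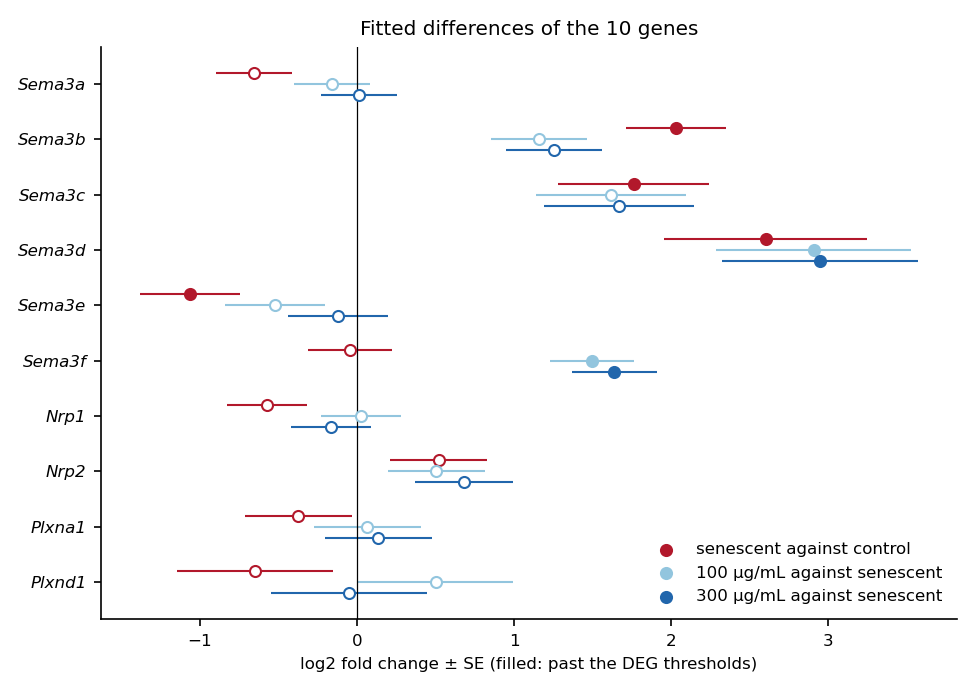
Fitted log2 fold change (horizontal axis) with its SE for each of the 10 genes in senescent against control MEFs and in each Fucoidan-FV dose against senescent MEFs. Filled points passed the DEG thresholds, and the largest value is 2.95 for Sema3d at 300 μg/mL.

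Sema3d, a ligand known for patterning nerves and blood vessels, had the highest fold over control of the 10 genes in treated MEFs. Control MEFs had 0.977, 0.667 and 2.73 CPM in mice 4, 5 and 6, which rest on 23, 34 and 58 counts. Senescent MEFs had 9.78, 13.6 and 2.34 CPM. The group means were 1.46 ± 1.11 and 8.58 ± 5.73 CPM (SD, n = 3), and senescent mouse 6 fell inside the control range. With 100 μg/mL the mice had 42.6, 43.5 and 107 CPM (64.3 ± 36.7), and with 300 μg/mL 55.7, 58.0 and 84.8 CPM (66.1 ± 16.2). Every treated sample was above every senescent sample. The fitted log2 fold changes were 2.60 (SE 0.65) for senescent against control, 2.91 (SE 0.62) for 100 μg/mL against senescent and 2.95 (SE 0.62) for 300 μg/mL against senescent, all past the DEG thresholds. The senescent call was lost in 5 of 16 alternative fits: that of the compared groups alone, and those without control mouse 4 or 5 or senescent mouse 4 or 5. The call at 100 μg/mL was lost without senescent mouse 4 or without mouse 6 of that dose, and the call at 300 μg/mL without senescent mouse 4 or without any 1 mouse of that dose. Both treated steps also fell short of the thresholds in fits of the compared groups alone and once the mouse was added as a block, with log2 fold changes of 2.67 (SE 0.66) and 2.78 (SE 0.65). Without senescent mouse 6 the changes were 3.06, 2.56 and 2.55, all still past the thresholds. Relative to control, mean Sema3d was 44.1-fold higher at 100 μg/mL and 45.4-fold higher at 300 μg/mL.

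Sema3c, a ligand known for guiding neural crest cells in the developing outflow tract, followed the same order at a higher level. Control mice 4, 5 and 6 had 26.9, 27.5 and 11.6 CPM (22.0 ± 9.01), and senescent mice had 119, 79.4 and 25.8 CPM (74.8 ± 46.9). Each mouse was higher in CPM after etoposide, yet senescent mouse 6 lay below controls 4 and 5, so the groups overlapped. In TPM mouse 6 hardly differed, at 6.56 in control and 6.61 in senescent MEFs. Treated mice had 180, 165 and 343 CPM at 100 μg/mL (229 ± 98.5) and 254, 185 and 275 CPM at 300 μg/mL (238 ± 46.8), all above the senescent range. The senescent step was 1.76 on the log2 scale (SE 0.48) and passed the DEG thresholds in the fit of all 4 groups. It missed them with the mouse as a block (1.72, SE 0.51), in a fit of the compared groups alone and when any 1 mouse of control, or mouse 4 or 5 of senescent, was left out. The steps to 100 and 300 μg/mL were 1.62 (SE 0.48) and 1.67 (SE 0.48). They did not pass in the fit of all 4 groups, but did in DESeq2, with no low-count filter and without senescent mouse 4. Without senescent mouse 6 they were 1.31 and 1.29. Mean Sema3c was 10.4-fold and 10.8-fold above control at the lower and higher dose.

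Sema3b, known as a candidate tumour suppressor, was the ligand whose senescent call held in the most alternative fits. Control MEFs had 3.99, 3.73 and 5.08 CPM (4.27 ± 0.713), and senescent MEFs had 14.3, 24.3 and 13.7 CPM (17.4 ± 5.94). Treated MEFs had 29.5, 32.6 and 54.5 CPM at 100 μg/mL (38.9 ± 13.6) and 40.6, 35.5 and 48.6 CPM at 300 μg/mL (41.6 ± 6.63). In CPM no group overlapped the one before it from control to senescent to either dose. In TPM control (2.44 to 6.54) and senescent samples (5.69 to 12.5) overlapped, while treated samples (20.8 to 30.4) stayed above both. The senescent step of 2.03 (SE 0.32) passed the DEG thresholds in the main fit and in 16 of 16 alternative fits. The treated steps of 1.16 (SE 0.30) and 1.26 (SE 0.30) did not pass in the main fit. Each passed in 7 of 16 alternatives, among them DESeq2 and the fit without senescent mouse 5. Mean levels were 9.11-fold and 9.74-fold above control at 100 and 300 μg/mL.

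Sema3f, which signals chiefly through Nrp2, differed from these 3 in its order. Control mice had 31.2, 31.5 and 22.8 CPM (28.5 ± 4.94) and senescent mice 38.6, 20.6 and 23.8 CPM (27.6 ± 9.61), so these groups overlapped fully and the fitted step was -0.04 (SE 0.27). With 100 μg/mL the mice had 85.5, 61.8 and 86.6 CPM (78.0 ± 14.0). With 300 μg/mL they had 102, 67.0 and 89.1 CPM (86.0 ± 17.7). Every treated sample exceeded every untreated one. The steps from senescent were 1.5 (SE 0.27) and 1.64 (SE 0.27), both past the DEG thresholds. With the mouse as a block both passed again, at 1.53 (SE 0.24) and 1.66 (SE 0.24). The call at 100 μg/mL was lost in 1 of 16 alternatives, without mouse 4 of that dose, and the call at 300 μg/mL in 2 of 16, without mouse 6 of that dose and in the fit of the compared groups alone.

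**Figure D2:**
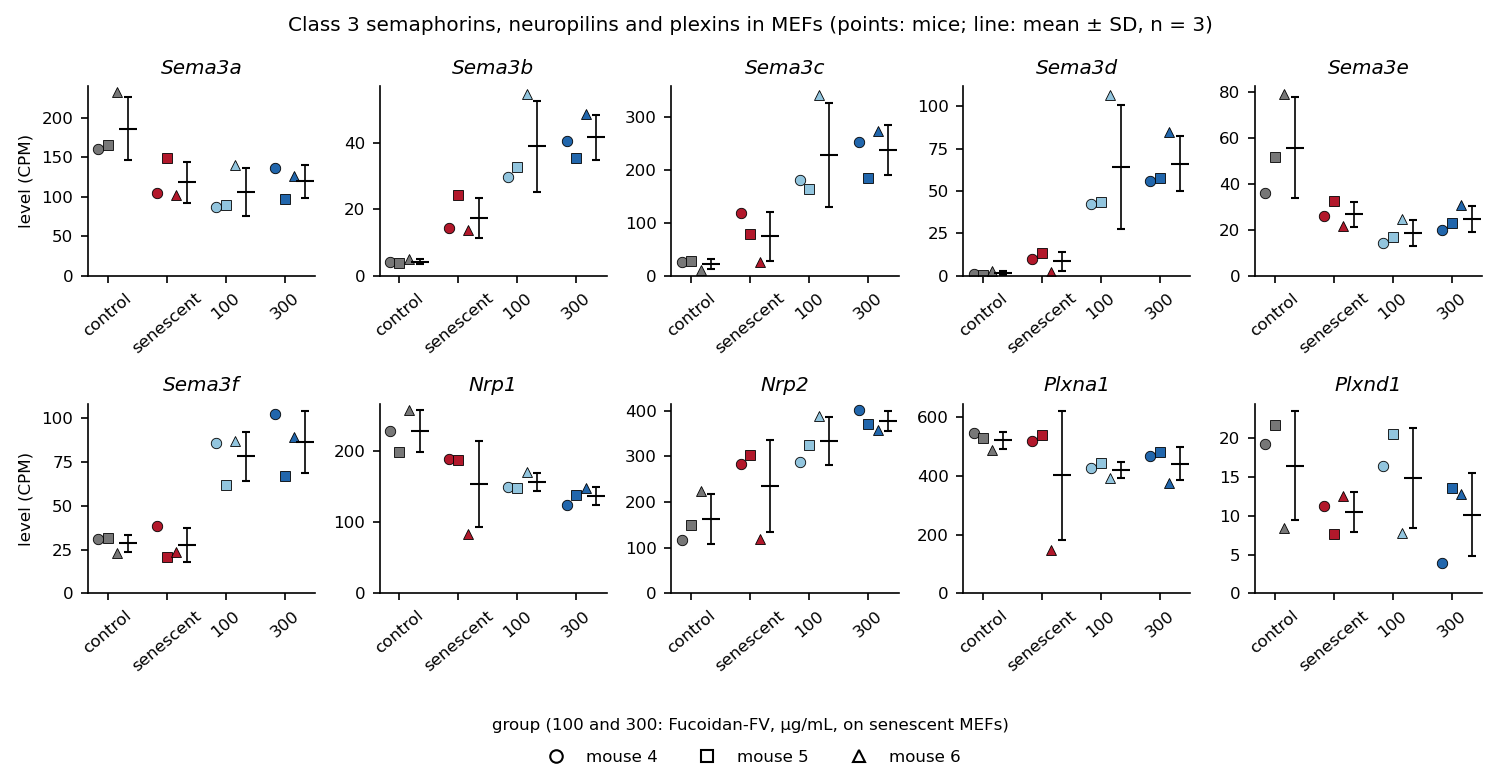
Level of each of the 10 genes in CPM (vertical axis, starting at 0) in control MEFs, senescent MEFs and senescent MEFs given 100 or 300 μg/mL Fucoidan-FV. Circles, squares and triangles are mice 4, 5 and 6, and the line with bars is the mean ± SD of 3 mice. Sema3f stays near 28 CPM in control and senescent MEFs and reaches 61.8 to 102 CPM in the 6 treated samples.

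Sema3b and Sema3f are neighbours, and both had higher means in treated than in senescent MEFs. Of the 6 genes annotated in the gap between them, 2 were tested. Slc38a3 averaged 0.248, 0.827, 0.325 and 0.808 CPM in control, senescent, 100 and 300 μg/mL. Gnai2, which encodes an inhibitory G protein subunit, averaged 702, 857, 696 and 776 CPM in the same order. Its log2 changes of 0.29 for senescence, -0.30 at 100 and -0.14 at 300 μg/mL did not pass the DEG thresholds (edgeR quasi-likelihood adjusted p = 0.306, 0.339 and 0.759).

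Sema3e, the Plxnd1 ligand that repels endothelial cells, was lower in senescent MEFs. Control mice had 36.1, 51.9 and 79.2 CPM (55.7 ± 21.8) and senescent mice 26.0, 32.4 and 21.6 CPM (26.7 ± 5.43), with no overlap. The step of -1.06 (SE 0.32) passed the DEG thresholds in the main fit and in 8 of 16 alternatives. With the mouse as a block it was -0.97 (SE 0.28) and no longer past the minimum of 1. It also missed the thresholds in the fit of the compared groups alone, without control mouse 5 or 6, without any 1 senescent mouse, and with library 5(2) alone for control mouse 5, in which Sema3e was at 32.7 unscaled CPM against 60.3 in library 5(1). Treated mice had 14.1, 16.7 and 24.9 CPM at 100 μg/mL (18.6 ± 5.63) and 19.9, 23.0 and 30.8 CPM at 300 μg/mL (24.6 ± 5.63). Both doses overlapped the senescent range, and the steps from senescent of -0.52 (SE 0.32) and -0.12 (SE 0.32) were not DEG calls.

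Sema3a, the founding member of the class and a ligand of Nrp1, had the highest length-corrected level of the 6 ligands in control MEFs, 51.8 ± 11.6 TPM. It had 160, 165 and 232 CPM in control mice (186 ± 40.1) and 104, 148 and 102 CPM in senescent mice (118 ± 26.2). The ranges did not overlap, but the step of -0.65 (SE 0.24) was below the DEG minimum. Treated mice had 87.1, 89.8 and 140 CPM at 100 μg/mL (106 ± 30.0) and 136, 96.5 and 126 CPM at 300 μg/mL (119 ± 20.5). These lay across the senescent values, with steps of -0.16 and 0.02 (SE 0.24 each).

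Counted per length, the ligand pool was larger in treated MEFs and differently made up. The 6 ligands together averaged 98.1 ± 10.9 TPM in control MEFs and 97.8 ± 41.7 TPM in senescent MEFs (SD, n = 3). They averaged 283 ± 69.4 TPM with the lower dose and 278 ± 26.6 TPM with the higher. The lowest treated sample, at 232 TPM, was above the highest untreated one, at 133 TPM. Sema3a made up 52.4% ± 5.92 of the ligand TPM in control, 36.1% ± 10.5 in senescent, 14.1% ± 1.49 at 100 and 14.2% ± 0.580 at 300 μg/mL. Sema3c had the opposite order, with 9.20% ± 2.94 in control, 26.3% ± 12.9 in senescent, 43.0% ± 3.94 at 100 and 42.5% ± 1.41 at 300 μg/mL. Sema3f had shares of 21.9%, 19.1%, 23.1% and 24.1% in the same order. Sema3d made up 0.510% in control and 8.08% at either dose. In senescent mouse 6 the ligand sum was 51.9 TPM, the lowest of the 12 samples. These levels depend on the transcript lengths that the authors' quantification assigned. Between libraries these ranged from 1053 to 3034 bases for Sema3b and from 2387 to 4538 bases for Sema3c.

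**Figure D3:**
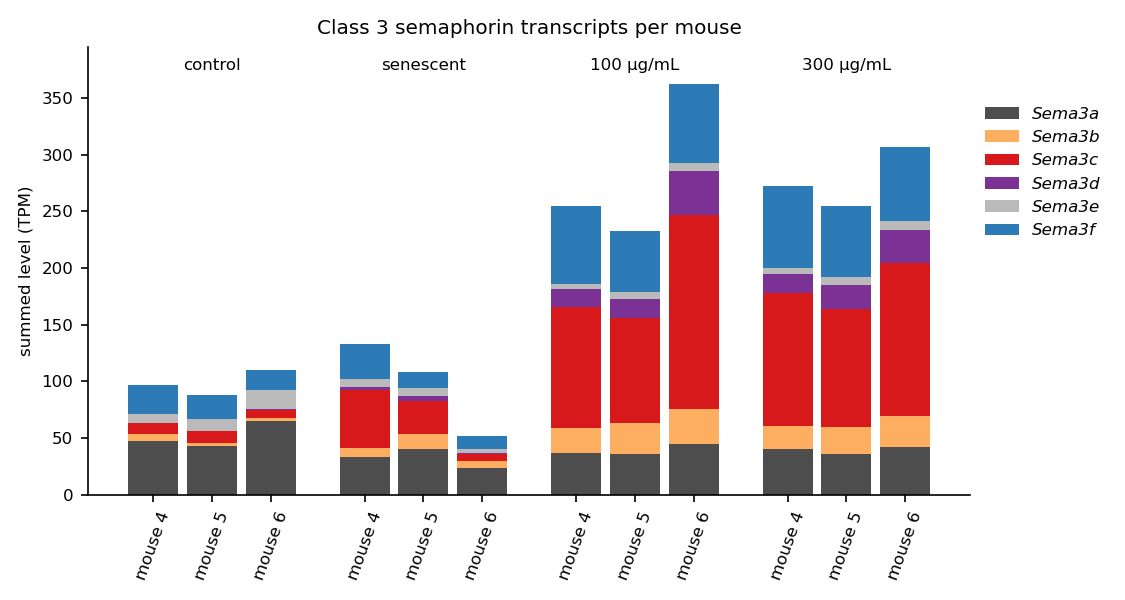
Summed TPM of the 6 class 3 semaphorin ligands in each of the 12 samples (vertical axis from 0), stacked by gene and grouped by condition. The 6 treated samples reach 232 to 362 TPM and the 6 untreated ones 51.9 to 133 TPM, and the Sema3c band is widest in the treated samples.

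Nrp1, the co-receptor for Sema3a that also binds VEGF, was lower in senescent MEFs. Control mice had 227, 198 and 257 CPM (227 ± 29.6), and senescent mice had 189, 186 and 83.7 CPM (153 ± 60.0). The ranges did not overlap in CPM, but they did in TPM (78.9 to 105 in control and 29.0 to 89.2 in senescent). The step of -0.57 (SE 0.25) was not a DEG call, and without senescent mouse 6 it was -0.27 (SE 0.14). Treated mice had 150, 148 and 170 CPM at 100 μg/mL and 124, 138 and 148 CPM at 300 μg/mL. Both doses lay within the senescent range, with steps of 0.03 and -0.16 (SE 0.25 each). Nrp1 shared 0.525% of its exonic bases with the microRNA gene Mir1903 on the same strand.

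Nrp2, the co-receptor of Sema3f and of VEGF-C, had its lowest mean in control MEFs, where Nrp1 had its highest. Control mice had 117, 151 and 224 CPM (164 ± 54.6) and senescent mice 283, 303 and 119 CPM (235 ± 101). Mice 4 and 5 were higher after etoposide, while mouse 6 was lower, so the groups overlapped. With 100 μg/mL the mice had 287, 325 and 389 CPM (334 ± 51.6) and with 300 μg/mL 401, 372 and 359 CPM (377 ± 21.7). In CPM only the higher dose was free of overlap with senescent samples. In TPM both doses were (21.4 to 72.0 in senescent, 89.9 to 103 at 100 and 96.5 to 112 at 300 μg/mL). The steps were 0.52 (SE 0.31) to senescent, 0.51 (SE 0.31) to 100 and 0.68 (SE 0.31) to 300 μg/mL, none a DEG call. Without senescent mouse 6 they were 0.84, 0.33 and 0.41. Mean Nrp2 was 2.04-fold and 2.30-fold above control at the 2 doses.

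The levels of both neuropilins were also set against each other, a ratio chosen after its values were seen. The ratio of Nrp2 to Nrp1 in TPM was 0.271 to 0.431 in control mice and 0.738 to 0.865 in senescent mice. It was 1.04 to 1.21 at 100 μg/mL and 1.28 to 1.70 at 300 μg/mL, so no range met the next. The ratio of Plxna1 to Plxnd1 overlapped between all groups, at 4.30 to 7.73, 2.78 to 9.08, 5.68 to 6.85 and 3.65 to 16.9 in the same order. In senescent mouse 6, where Nrp1 and Nrp2 were both low, the ratio of Nrp2 to Nrp1 was 0.738. Nrp1 has far more single-transcript sequence than Nrp2 (84.1% against 32.0%), and the part of that difference in the ratio was not tested. Between libraries 5(1) and 5(2), Nrp1 and Nrp2 differed by 0.19 and 0.34 log2 units.

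Plxna1, the signalling partner that neuropilins recruit for Sema3a and other class 3 ligands, had the highest length-corrected level of the 10 genes in control and senescent MEFs, 116 ± 21.7 and 96.3 ± 64.5 TPM. In CPM it had 546, 529 and 489 in control mice, 518, 541 and 149 in senescent mice, 427, 446 and 393 at 100 μg/mL and 469, 481 and 377 at 300 μg/mL. Senescent mouse 6 alone was low. The steps were -0.37, 0.07 and 0.14 (SE 0.34 each), and without that sample the senescent step was 0.03 (SE 0.15). In treated MEFs Sema3c took the first place in TPM, at 124 ± 42.2 and 118 ± 15.1, but Plxna1 stood within that spread at 114 ± 9.34 and 115 ± 25.1. Plxna1 shared 6.22% of its exonic bases with an opposite-strand gene, and Nrp2 shared 3.18%.

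Plxnd1, the receptor that Sema3e binds without a neuropilin, overlapped between all groups in CPM. It had 19.2, 21.6 and 8.46 CPM in control mice, 11.2, 7.67 and 12.6 in senescent mice, 16.3, 20.5 and 7.79 at 100 μg/mL and 3.95, 13.6 and 12.9 at 300 μg/mL. In TPM, however, senescent samples (8.98 to 16.98) lay below control (18.25 to 24.3) and 100 μg/mL samples (17.13 to 21.2). Samples at 300 μg/mL (7.76 to 23.65 TPM) overlapped the other groups. The fitted steps were -0.65 (SE 0.49), 0.50 (SE 0.49) and -0.05 (SE 0.49). Its level in the pair of libraries from control mouse 5 was 6.09 and 37.4 unscaled CPM, a difference of 2.61 log2 units within 1 animal. Control 6, library 5(1), senescent 5 and mouse 4 of 300 μg/mL had the 4 lowest medians of single-transcript genes, from -1.58 to -0.90 log2 units. In these 4 libraries Plxnd1 was at 3.8 to 7.57 unscaled CPM. In mouse 6 of 100 μg/mL Plxnd1 was nearly as low, at 7.74, although that median was -0.15. The highest level outside library 5(2) was 23.7, in mouse 5 of 100 μg/mL, where the median of these genes was 1.26. Nrp1 and Plxna1, which hold more single-transcript sequence than Plxnd1, differed by 0.19 and -0.10 log2 units between libraries 5(1) and 5(2).

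**Figure D4:**
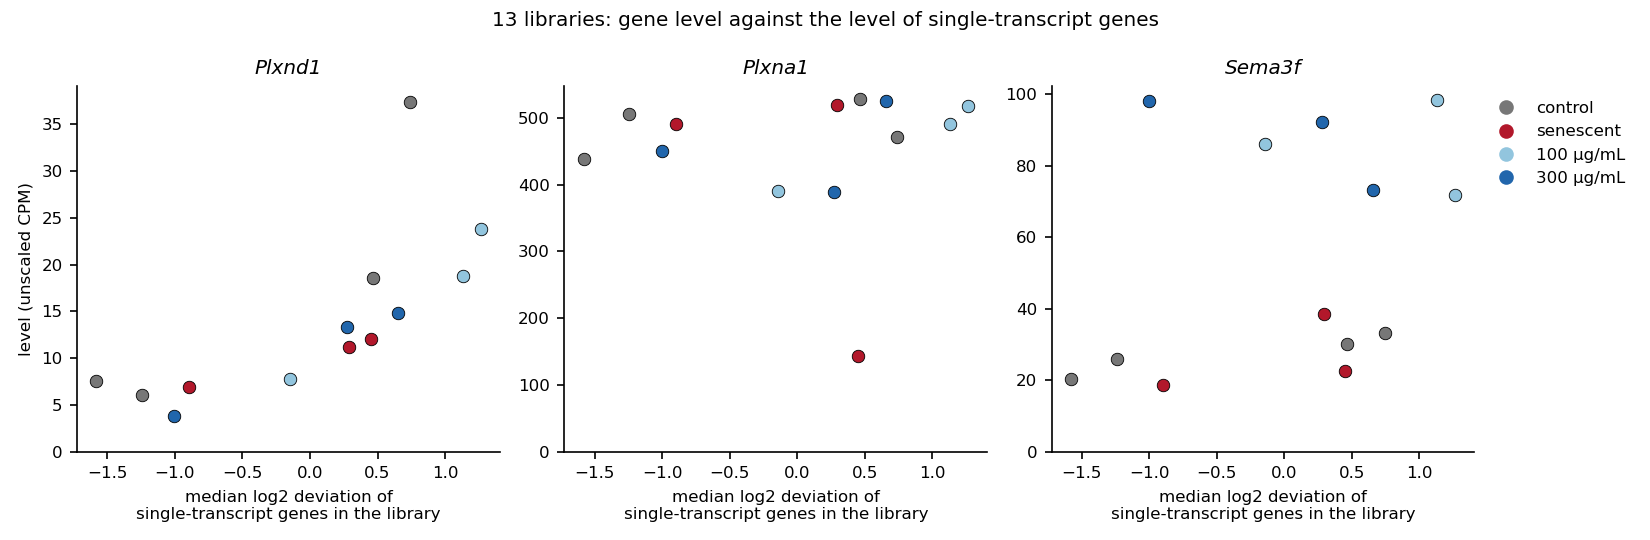
Level of Plxnd1, Plxna1 and Sema3f in unscaled CPM (vertical axes from 0) against the median log2 deviation of 2195 single-transcript genes (horizontal axis) in the 13 libraries, coloured by group. Plxnd1, of which 79.3% is single-transcript sequence, is at 3.8 to 7.57 in the 4 libraries at the left, whereas Plxna1 (83.9%) is at 438 to 505 in the same 4, and Sema3f (20.7%) separates treated from untreated libraries at any position.

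Several of the 10 genes had like profiles over the 12 samples. Pearson correlations of log2 CPM, which share libraries and depth, were 0.96 for Sema3b with Sema3d, 0.94 for Sema3c with Sema3d and 0.92 for Sema3b with Sema3c. Nrp2 followed Sema3d at 0.91, and Sema3a followed Sema3e at 0.90. Among all tested genes, the profiles most like Sema3d were those of Slc7a2, a cationic amino acid transporter (0.993), and Klhl13, a ubiquitin ligase adaptor (0.989). Sema3c was closest to Aldh1a1, an enzyme of retinoic acid synthesis (0.990), and to Nynrin (0.984). Sema3b was closest to Slc66a3 (0.993) and to Apod, a lipocalin that carries lipids (0.988). Sema3f was closest to Ano5 (0.971) and Cttnbp2 (0.966), both under 5 CPM. Sema3e was closest to Tbc1d1, a Rab regulator (0.980).

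Markers of other cell types were summed in the same samples. The 7 endothelial markers summed to 1.22 to 1.87 CPM in control, 0.345 to 3.02 in senescent, 6.32 to 12.7 at 100 and 5.35 to 8.11 at 300 μg/mL. The difference came mainly from Tek, a receptor of angiopoietins, which averaged 0.355, 0.481, 5.87 and 4.92 CPM in the same order. Cldn5 was at 0 in every sample, and the endothelial cadherin Cdh5 and Pecam1 averaged under 1 CPM in each group. The 7 neuronal markers summed to 35.9 to 80.0 CPM in control, 33.5 to 59.6 CPM in senescent and 47.9 to 90.7 CPM in treated samples, with Snap25 and Rbfox3 at 0 in control and senescent MEFs. All but Tubb3 and Stmn2, 5 genes, averaged under 1 CPM in each group. The 6 muscle markers summed to 104 to 196 CPM in control, 149 to 360 CPM in senescent and 67.8 to 148 CPM in treated samples. Of these, 4 averaged under 1 CPM in each group, all but Des and Acta1. Macrophage markers summed to at most 15.9 CPM and epithelial markers to at most 2.04 CPM in any sample. Whether cells of these types were present, and their part in the semaphorin levels, was not tested.

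The 10 genes were set beside 61 other genes of semaphorin signalling, in 6 lists, of which 59 were tested. In edgeR 4 were DEG calls after senescence, all higher, 4 at 100 μg/mL (1 higher and 3 lower) and 6 at 300 μg/mL (2 higher and 4 lower). These are 6.78%, 6.78% and 10.2% of the 59, beside 8.42%, 2.69% and 1.64% of all tested genes. These lists too were chosen with earlier results of these data known. Nothing is therefore read from the differences in share, and the adjusted p values of their genes are given as a description. The median log2 changes of these 59 genes were 0.03, -0.04 and -0.04, beside 0.07, -0.02 and 0.00 for all tested genes and -0.21, 0.50 and 0.41 for the 10 genes. Between the doses none of the 59 was a call in edgeR or DESeq2, and 1 had an unadjusted p under 0.05 in edgeR. The rest of the class 3 system gave no DEG call among its 3 tested genes, Plxna2, Plxna3 and Plxna4, in any comparison.

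Semaphorins of other classes differed gene by gene. Of 13, Sema6a, a transmembrane semaphorin that binds A-type plexins, rose at both doses. It had 6.68, 4.96 and 7.14 CPM in senescent mice, 12.2, 14.3 and 19.8 at 100 μg/mL and 20.7, 16.9 and 22.6 at 300 μg/mL, with log2 changes of 1.3 (SE 0.29, edgeR adjusted p = 0.0287) and 1.68 (SE 0.29, adjusted p = 0.0120). The adjusted p ran from 3.31e-05 to 0.0935 over the alternatives at the lower dose and from 1.19e-07 to 0.0777 at the higher dose. Sema7a, a membrane-anchored ligand of Plxnc1 and integrins, fell by 3.18 on the log2 scale at 300 μg/mL (edgeR adjusted p = 0.0482), from 31.2, 12.2 and 52.9 CPM to 1.01, 6.12 and 3.44 CPM. That call held in 4 of 16 alternatives, and 87.4% of Sema7a is single-transcript sequence. Its values at 100 μg/mL, 7.54, 9.77 and 2.42 CPM, were also below every senescent sample. In TPM that dose overlapped senescent samples (1.20 to 5.99 against 5.16 to 20.3). The log2 change there was -2.29, not a call in the main fit but one in 4 of 16 alternatives. Sema4g rose after etoposide, from 2.72, 3.14 and 5.87 CPM to 9.30, 13 and 10.9 CPM (log2 change 1.5, edgeR adjusted p = 0.0344, from 0.00474 to 0.113 over the alternatives). Sema5b also rose, from 0.212 CPM in control mouse 4 and 0 in the others to 2.78, 1.51 and 0.985 CPM (edgeR adjusted p = 0.0227, from 2.33e-05 to 0.113 over the alternatives).

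Ligands and partners that share the neuropilins changed in both directions. Of 12, Vegfb and Vegfd rose after etoposide. Vegfb went from 9.18, 7.87 and 6.63 CPM to 13.6, 15.9 and 27.4 CPM (log2 change 1.26, SE 0.30, edgeR adjusted p = 0.0161, from 0.000242 to 0.0887 over the alternatives). Vegfd, a ligand of lymphatic VEGF receptors, had 2.25, 1.90 and 0 CPM in control and 8.18, 11.3 and 4.25 CPM in senescent mice (log2 change 2.48, SE 0.73, edgeR adjusted p = 0.0433, called in 8 of 15 alternatives). It was higher again in treated mice, at 38.6, 28.8 and 38.9 CPM with 100 and 24.0, 23.2 and 31.4 CPM with 300 μg/mL. All of these were above the senescent values, but neither step was a DEG call in the fit of all 4 groups. Pgf, the placental growth factor that binds Flt1 and neuropilins, fell at both doses. It had 20.0, 28.5 and 42.6 CPM in senescent mice, 6.10, 6.21 and 7.13 at 100 μg/mL and 8.99, 7.26 and 5.52 at 300 μg/mL. Its log2 changes were -2.23 (SE 0.34, edgeR adjusted p = 0.00482, from 6.39e-08 to 0.0336 over 16 alternatives) and -2.06 (SE 0.34, adjusted p = 0.00991, from 3.43e-07 to 0.0656), the second of which was lost without mouse 6 of 300 μg/mL. Nrcam, an adhesion molecule that partners Nrp2 in responses to Sema3f, fell from 16.6, 19.8 and 15.1 CPM to 3.10, 3.10 and 3.56 CPM at 100 and to 3.30, 4.45 and 1.87 CPM at 300 μg/mL. Its log2 changes were -2.40 (SE 0.41, edgeR adjusted p = 0.00792) and -2.42 (SE 0.41, adjusted p = 0.0103), and the call held in 16 of 16 alternatives at 100 and 15 of 16 at 300 μg/mL, where it was lost without mouse 6 of that dose. In TPM Nrcam at 300 μg/mL (0.90 to 5.77) overlapped senescent samples (5.62 to 7.61). Sema3f and this partner of its co-receptor had opposite signs at both doses.

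Of the 4 proprotein convertases, enzymes that cleave class 3 semaphorins at basic sites, Pcsk6 rose at 300 μg/mL. It had 44.1, 57.3 and 25.5 CPM in senescent mice and 112, 99.6 and 76.6 CPM at that dose, a log2 change of 1.18 (SE 0.27, edgeR adjusted p = 0.0397, called in 9 of 16 alternatives). At 100 μg/mL Pcsk6 had 79.1, 79.0 and 61.6 CPM, also above every senescent sample. That log2 change of 0.79 was not a DEG call. Pcsk5, named after its values were seen, had 2.89, 6.44 and 2.87 CPM in control and 6.97, 23.2 and 12 CPM in senescent mice. Its log2 difference of 1.78 (SE 0.54, edgeR adjusted p = 0.0504) missed the threshold but passed in 9 of 16 alternatives, the replicate block and DESeq2 among them. Furin and Pcsk7 gave no DEG call. Of 24 genes of plexin signalling, Rnd1, a GTPase that binds plexins, fell at both doses. It had 15.3, 17.4 and 21.2 CPM in senescent mice, 6.98, 6.63 and 4.22 at 100 μg/mL and 4.54, 6.26 and 5.10 at 300 μg/mL. The log2 changes were -1.59 (SE 0.35, edgeR adjusted p = 0.0259) and -1.76 (SE 0.35, adjusted p = 0.0245), and both calls were lost whichever mouse of the compared groups was left out. The other 23 genes, which include the collapsin response mediators and the MICAL enzymes, passed in no comparison of the fit of all 4 groups, and Dpysl2 passed in 1 of 16 alternatives after senescence.

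**Figure D5:**
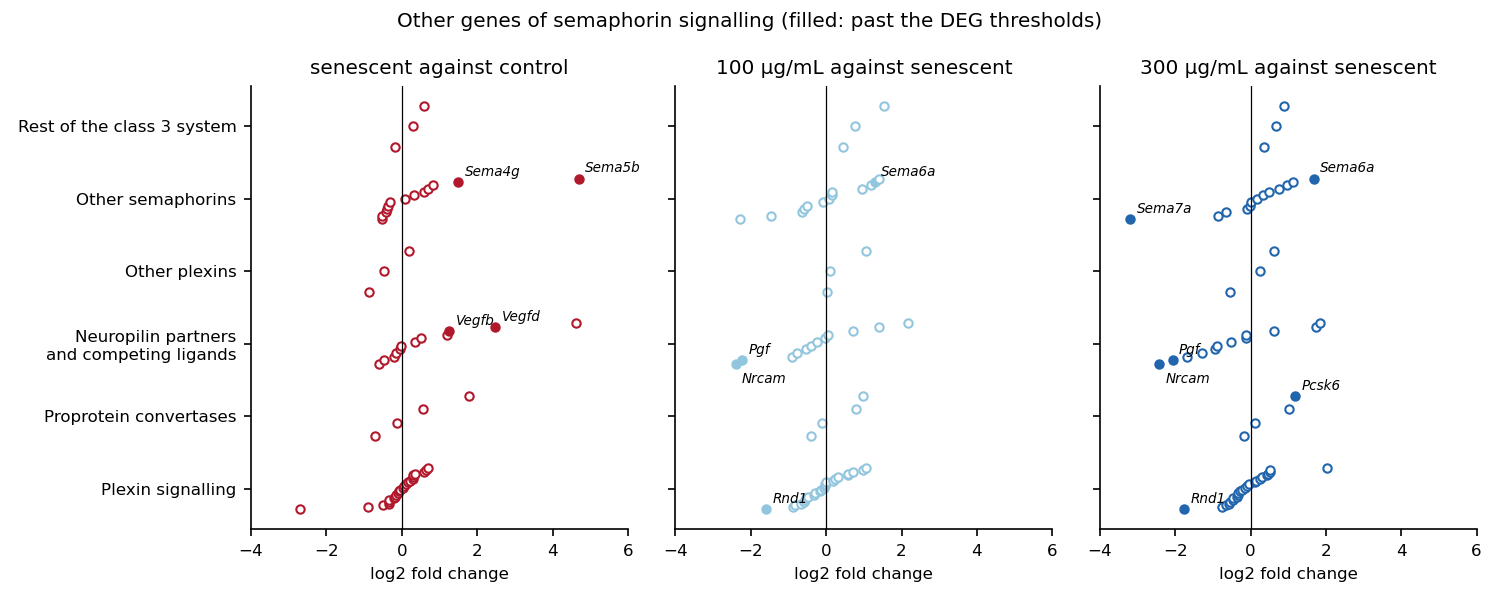
Log2 fold change (horizontal axis) of the 59 tested genes in 6 lists of semaphorin signalling, for senescent against control MEFs and each dose against senescent MEFs. Filled, named points passed the DEG thresholds in edgeR: 4, 4 and 6 genes from left to right, with Pgf and Nrcam lower at both doses.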

How the data were processed

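Stranded total RNA libraries (Illumina TruSeq) of wild-type MEFs were quantified by the authors, whose processing notes name FastQC 0.12.1, Trimmomatic, STAR 2.7.11b and RSEM 1.3.1. The strand setting used in counting is not given in the sources used here. The deposited tables hold RSEM expected counts, TPM and FPKM per gene, with estimated transcript lengths. The deposited expected counts were rounded, libraries 5(1) and 5(2) were summed, and 15034 genes passing filterByExpr (minimum count 10, total 15) were fitted with edgeR 4.0.16 (R 4.3.3) by quasi-likelihood over all 4 groups with TMM scaling, with Benjamini-Hochberg adjustment. A DEG had an adjusted p below 0.05 and a change above 1 on the log2 scale. DESeq2 1.42.0 and the other fits are alternatives. TPM of control mouse 5 is the mean of 2 libraries. The 13 libraries held 22782536 to 31278750 counts (median 25789035).

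The 10 genes, the pathway and marker lists and the motifs were chosen with earlier results of these data known. All 10 genes are named, every pathway gene called a DEG in at least 1 comparison, and for each of the 10 that was a DEG the 2 genes of most similar profile, of which 1 is not reported here. The labels give the same mouse numbers in every group, so samples can be paired by number. Whether equal numbers mark the same animal was not tested. The main fit held no mouse term, because the study's methods name none, and the mouse block is an alternative. In 18 pairs of same-numbered samples, the correlation of their deviations from the group means had a median of -0.0063, with extremes of -0.20 and 0.43. An offset for single-transcript sequence (a lowess curve, span 0.3, of log2 deviation on the share of exonic bases lying in 1 transcript) was chosen after seeing the data. Locations use GENCODE vM39, and 56310 of 57010 gene identifiers matched it. Protein sequences, planned for description, were not used here. A merged table of the same counts was not used.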

Additional observations from a re-analysis of the deposited data

How the results depend on the processing

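The counts of DEG calls among the 10 genes were 4, 2 and 2 in senescent, 100 and 300 μg/mL comparisons. With the replicate block (mouse) they were 2, 1 and 1, and with only the compared groups in the fit 1, 1 and 0. DESeq2 and the fit with no low-count filter each gave 4 at 100 and 4 at 300 μg/mL. Leaving out 1 mouse gave 1 to 3, 1 to 3 and 0 to 3 calls. Over all genes, 1266, 405, 246 and 1 were called. The compared groups alone gave 699, 168, 101 and 0, DESeq2 gave 833 at 100 and 643 at 300 μg/mL, no low-count filter gave 800, 580 and 2 from 100 μg/mL on, and the single-transcript offset gave 393 at 300 μg/mL. The 1 call between doses became 0 with at least 10 counts in every sample, with library 5(2) alone, with the replicate block and with the offset together with it. Leaving out 1 mouse gave 911 to 1456, 136 to 365, 46 to 220 and 0 calls. At 100 μg/mL the split was 165 higher and 240 lower with TMM, 174 and 147 with RLE factors and 527 and 306 in DESeq2. Among 59 pathway genes, calls were 4, 4 and 6. DESeq2 gave 7 after senescence and 7 at 100 μg/mL, the compared groups alone gave 0 and 2 (senescence and 300 μg/mL), library 5(2) alone gave 2 after senescence, and leaving out 1 mouse gave 2 to 4, 2 to 3 and 0 to 4. The order of the 10 genes by mean FPKM was that by mean TPM in every group. The causes of these shifts were not tested. Groups of 3 mice limit the precision of every value.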
